A study of Mus musculus with 6 samples.

Results

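A total of 4 samples of mouse pre-B cells are compared here, 2 from wild-type mice and 2 from Eμ-Myc mice with established lymphoma, across every gene that could be tested. They are 4 of the 6 RNA-seq samples of the series, and 16683 of the 37991 gene identifiers counted in the files passed the filter on low counts. The Eμ-Myc transgene places the Myc proto-oncogene under the immunoglobulin heavy-chain enhancer, so that B-lineage cells of these mice carry a constant supply of MYC and the mice develop clonal B-cell lymphoma. Wild-type cells came from C57BL/6 mice of 4 to 6 weeks without the transgene. Malignant cells came from C57BL/6 mice of 10 to 20 weeks that were heterozygous for Eμ-Myc and were killed once lymphoma had appeared. By the labels all cells were sorted from bone marrow as pre-B cells with high B220 and little surface IgM or IgD, whereas the study's methods give this gate for wild-type cells, as pro-B and pre-B cells, and describe the malignant cells as positive for B220 and negative for IgM and IgD. Each sample was 1 animal, so each malignant sample is 1 independent tumour. The wild-type animals were female, whereas malignant animals could be of either sex. Age, the presence of a tumour, the transgene and any difference in gate differ together between the groups and cannot be told apart. The remaining 2 samples, premalignant Eμ-Myc cells of 4 to 6 weeks, are not compared here. They entered the filter on low counts, the scaling between samples and the estimate of the spread.

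MYC is a transcription factor that binds DNA together with its partner MAX, most often at the sequence CACGTG, the E-box. It is best known for raising the genes that a growing cell needs to build ribosomes, make nucleotides and run its mitochondria. Pre-B cells are the bone marrow stage at which a cell has joined its heavy-chain V, D and J segments, shows a heavy chain with the surrogate light chain, and begins to rearrange its light-chain genes with the RAG recombinase.

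The files hold 30031100 to 52996457 counts for each of the 4 samples, and 3 counts correspond to 0.0526 to 0.108 CPM (counts for every 1000000 counts of a sample). CPM here are counts divided by the library size after TMM scaling, which sets the bulk of genes level between samples. Myc was at 33.8 and 41.4 CPM in wild type and at 1732 and 1578 CPM in malignant cells. The 2 malignant samples differed from each other more than the wild-type samples did. Among genes with a group mean of at least 10 CPM, 477 of 8695 differed by over 2-fold between the malignant samples, against 139 of 8874 between the wild-type samples.

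In malignant cells a larger share of the counts came from genes for making ribosomes and proteins and a smaller share from B-lineage genes. By edgeR's quasi-likelihood test, with a false discovery rate of 0.1 and a log2 fold change of at least 0.5 in either direction, 8212 genes were called, which is 49.2% of those tested. Of these, 4153 were higher in malignant cells (24.9% of all tested) and 4059 were lower (24.3%). The 2 directions were not alike in size. The median log2 fold change was 1.28 among genes called higher and -1.95 among genes called lower, and 77 genes rose by at least 32-fold while 381 fell by as much. With 2 samples against 2 an exact permutation test of a single value cannot go below p = 0.333, so shares of counts are given below as values with no test. RNA per cell was not measured, so each change is relative to the other genes of the same sample, and fewer cells of a type cannot be told apart from less RNA for each cell. The split between directions depended on the scale, since with total counts in place of TMM 2957 genes were higher and 5367 lower and the median gene moved by -0.31 on the log2 scale. The median changes of the ribosomal protein, ribosome biogenesis and translation factor classes stayed above 0 under every scale tried.

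Counted as shares of all counts, 25.8% to 29.1% of the counts would have to move to another gene to turn a wild-type sample into a malignant one. The same measure was 8.31% between the wild-type samples and 12.5% between the malignant ones. The genes called higher, which were chosen on these same values, held 28.3% and 26.3% of the counts in wild type and 53.1% and 52.4% in malignant cells. Growth genes took up 49.9% of the summed gain and 4.46% of the summed loss. This group covers ribosomes, translation, RNA processing, protein folding, the RNA polymerases, the proteasome and nuclear transport. The 200 genes with the largest gains made up 50% of the gain, while 457 genes were needed for 50% of the loss. Counts were also more concentrated in malignant cells, where 768 and 843 genes held 50% of all counts against 1053 and 1030 in wild type.

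Growth genes, comprising 14 of the 66 functional classes, held 18.5% and 17.4% of all counts in wild type and 31.1% and 29.0% in malignant cells. Of 1281 tested, 813 were called higher and 61 lower, with a median log2 fold change of 0.82 against a median of -0.02 over everything tested. Metabolic genes held 7.004% and 7.11% in wild type and 9.94% and 9.38% in malignant cells. In the other direction, B-lineage genes held 7.45% and 8.10% in wild type and 3.78% and 4.28% in malignant cells, and immune response genes 2.58% and 3.48% and then 1.43% and 1.48%.

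Cytosolic ribosomal proteins, the building blocks of the ribosome, rose almost as a whole. Of 88 tested, 85 were called higher and 2 lower, with a median log2 fold change of 1.45, and their summed share of counts went from 4.07% ± 0.211 to 9.48% ± 1.41 (SD, n = 2). Rplp0, a protein of the ribosomal stalk, was at 1002 and 963 CPM in wild type and 4598 and 2961 CPM in malignant cells, a log2 fold change of 1.94 ± 0.24 (SE, adjusted p = 0.00205). Rpl4 stood at 1552 and 1442 against 4893 and 3873 CPM, and Rps12 rose furthest of the well-expressed members, from 485 and 446 to 1932 and 2416 CPM (log2 fold change 2.22 ± 0.18). The 2 members called lower, Rpl3l and Rps4y2, are low-abundance relatives of widely expressed ribosomal proteins, at 4.12 and 5.32 against 0.105 and 0.143 CPM and at 7.73 and 6.77 against 0 and 0.824 CPM. Ribosomal protein genes have many near-identical pseudogenes, so reads may be split between copies, and the levels of single members are uncertain to that extent.

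The factors that assemble ribosomes moved the same way. The class of ribosome biogenesis and nucleolar genes held 1.20% ± 0.0173 of counts in wild type and 3.03% ± 0.0954 in malignant cells (SD, n = 2), and 162 of 185 tested were higher against 1 lower. Ncl, which encodes nucleolin, was at 696 and 665 CPM in wild type and 4538 and 3033 CPM in malignant cells (log2 fold change 2.48 ± 0.24). Npm1, nucleophosmin, was at 517 and 457 against 3017 and 2672 CPM (log2 fold change 2.55 ± 0.17). Mybbp1a, a nucleolar binding partner of several transcription factors, went from 131 and 147 to 1023 and 1050.3 CPM. Gnl3, nucleostemin, had the largest rise among the genes of at least 10 CPM, 12.8-fold, from 42.9 and 42.4 to 645 and 450.2 CPM (adjusted p = 0.00054). The single gene lower in the class was 2610020H08Rik, now named Rexo5, at 18.2 and 17.6 against 8.47 and 10.9 CPM (log2 fold change -0.89 ± 0.23).

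RNA polymerase I transcribes the rRNA genes, and 10 of its 14 tested subunits and factors were higher. Polr1b, the second-largest subunit, had the largest rise, with 23.5 and 23.8 CPM in wild type and 201 and 194 CPM in malignant cells (log2 fold change 3.06 ± 0.13, adjusted p = 0.00044). Polr1a, the largest subunit, was at 49.2 and 59.4 against 237 and 330.5 CPM (log2 fold change 2.39 ± 0.21). Ubtf, the factor that holds rRNA genes in an open state, rose less, from 254 and 251 to 418 and 465 CPM (log2 fold change 0.81 ± 0.13). Ttf1, which terminates rRNA transcription, was the 1 gene called lower, at 61.3 and 68.0 against 46.6 and 43.7 CPM (log2 fold change -0.52 ± 0.14). RNA polymerase III, the maker of tRNA and 5S rRNA, changed less as a class, with 14 of 29 higher and 2 lower and a median log2 fold change of 0.50, and with total counts as the scale only 7 were called higher. Its Polr3g subunit nevertheless went from 7.27 and 6.31 to 55.1 and 32.5 CPM (log2 fold change 2.69 ± 0.30).

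Translation factors gained as well. Their share of counts went from 2.35% ± 0.0679 to 4.43% ± 0.376 (SD, n = 2), with 49 of 67 tested higher and 4 lower. Eef1a1, which brings aminoacyl-tRNA to the ribosome, was the gene with the largest gain in share of all, at 5088 and 4694 CPM in wild type and 14899.9 and 9764 CPM in malignant cells (log2 fold change 1.33 ± 0.25). Eef2, which moves the ribosome along, was at 2366 and 2665 against 6682 and 6372 CPM (log2 fold change 1.38 ± 0.17). The largest rise among well-expressed initiation factors was that of Eif1a, 5.42-fold, from 44.8 and 31.1 to 182 and 229 CPM. The genes that fell in this class were Eif4e3, Eif5a2, Eif2c1 and Eif2c4, the last a pair of older names of the Argonaute genes Ago1 and Ago4, which act in small-RNA silencing rather than in initiation. Eif2c1 was at 154 and 182 against 88.9 and 90.8 CPM and Eif2c4 at 31.0 and 37.4 against 11.4 and 10.4 CPM.

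The enzymes that charge tRNAs with amino acids followed the same direction without exception among the genes called. Of 41 aminoacyl-tRNA synthetases 36 were higher and 0 lower, with a median log2 fold change of 1.17. Gars, the glycine enzyme, was at 84.8 and 74.4 against 330.1 and 418 CPM (log2 fold change 2.23 ± 0.17). The bifunctional Eprs for glutamate and proline was at 127 and 124 CPM in wild type and 563 and 427 CPM in malignant cells. Enzymes that modify tRNA and other RNA were higher in 64 of 115 cases and lower in 2. On the scale of total counts 47 were higher and 8 lower, and with a sample left out 0 to 5 were lower, the fewest without wild-type sample 1. Pus7, a pseudouridine synthase, rose 10.3-fold from 15.9 and 16.99 to 179 and 161 CPM, and Nsun2, a cytosine methyltransferase of tRNA, went from 103 and 103 to 521 and 473 CPM.

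Protein folding and export from the nucleus also gained. The chaperonins and prefoldin were higher in 17 of 27 genes, and Hspd1, the mitochondrial chaperonin HSP60, was at 141 and 134 against 1066 and 755 CPM (log2 fold change 2.73 ± 0.20). Hsp90ab1, the constitutive cytosolic HSP90, went from 1224 and 1452 to 5543 and 3900.1 CPM, the third-largest gain in share of counts among protein-coding genes. Heat-shock proteins as a class were less uniform, with 43 of 101 higher and 15 lower, or 37 higher and 24 lower on the scale of total counts. Their lower count was 8 without wild-type sample 2 and 23 without malignant sample 2. Hspa1b, the stress-inducible HSP70 gene, stood at 1.19 and 43.0 CPM in wild-type samples 1 and 2 and at 0.753 and 2.04 CPM in malignant cells, and its log2 fold change of -4.002 turned to 0.22 without wild-type sample 2. Nuclear pore and transport genes were higher in 59 of 87 cases, among them the importin Ipo5, at 200.3 and 167 against 860.0 and 793 CPM (log2 fold change 2.17 ± 0.16). The tRNA exporter Xpot rose 5.75-fold, from 53.6 and 53.5 to 251 and 365 CPM. Of 55 proteasome genes 37 were higher and only Psme4, an alternative activator, was lower, at 424 and 386 against 242 and 139 CPM.

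Splicing and RNA polymerase II genes, in contrast, held an almost constant share. Spliceosome genes made up 5.08 and 4.74% of counts in wild type and 5.24 and 5.31% in malignant cells, although 102 of 234 were called higher and 15 lower. With total counts as the scale those numbers became 60 and 31. RNA polymerase II, Mediator and the general factors held 1.19 and 1.16% and then 1.10 and 1.10%, with 44 of 136 higher and 12 lower, or 24 and 23 on the scale of total counts, and the lower count was 6 without wild-type sample 2. The largest rise in the latter class was that of Taf4b, a subunit of TFIID found mainly in germ cells and B cells, 11.8-fold, from 6.54 and 5.83 to 78.8 and 67.4 CPM.

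**Figure D1:**
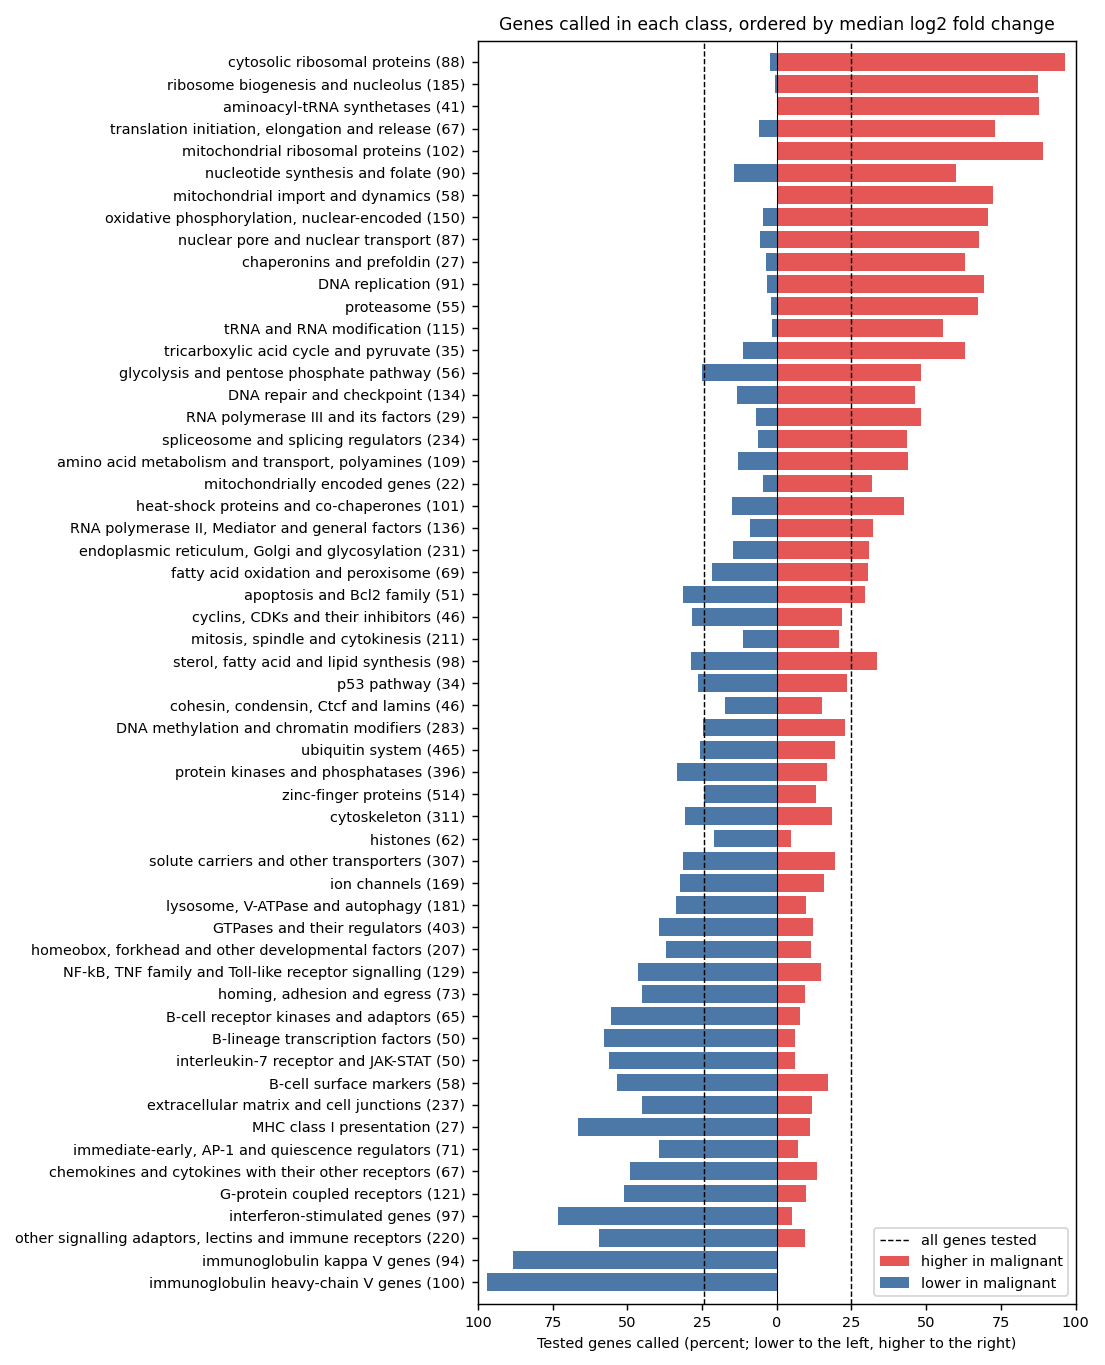
Percent of the tested genes of each functional class called higher (right, red) or lower (left, blue) in malignant cells, for classes with at least 20 tested genes and with the number tested in parentheses. Dashed lines mark the shares over all genes tested, 24.9% higher and 24.3% lower. The classes at the top serve protein synthesis and mitochondria and those at the bottom are immunoglobulin V genes and immune genes.

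A list of 26 genes well known as MYC targets was looked at one by one. The list was chosen with earlier results of these data known, so its counts are a description and no test. All 26 were tested, 25 were called higher and none lower, with a median log2 fold change of 2.29. Over all genes tested 24.9% were called higher. The exception was Ccnd2, cyclin D2, at 54.1 and 51.1 CPM in wild type and 37.7 and 86.3 CPM in malignant cells (adjusted p = 0.634), where the malignant samples lay on either side of the wild-type ones. Srm, spermidine synthase, was at 19.3 and 24.7 against 253 and 295 CPM (log2 fold change 3.64 ± 0.18), Nolc1, a nucleolar phosphoprotein, at 94.8 and 91.7 against 573 and 581 CPM (log2 fold change 2.63 ± 0.13) and Odc1, the first enzyme of polyamine synthesis, at 88.4 and 117 against 383 and 628 CPM (log2 fold change 2.30 ± 0.27). RefSeq promoter windows (GRCm38.p6, 250 bases before to 50 after the start of transcription) were at hand for 21 of the 26, and 4 of these held the E-box CACGTG, a palindrome that reads the same on both strands. These 4 windows are shown because they carry the motif beside a measured rise, each written 5′ to 3′ on the strand of the gene with CACGTG in capitals.
Ldha (chr7:46845554-46845853, plus strand): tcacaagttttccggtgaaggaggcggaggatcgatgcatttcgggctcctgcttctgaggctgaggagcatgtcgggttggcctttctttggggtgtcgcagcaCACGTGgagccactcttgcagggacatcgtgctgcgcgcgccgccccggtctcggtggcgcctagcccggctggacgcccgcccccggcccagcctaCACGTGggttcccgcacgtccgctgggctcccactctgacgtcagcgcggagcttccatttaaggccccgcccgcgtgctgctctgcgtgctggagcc
Hspd1 (chr1:55088194-55088493, minus strand): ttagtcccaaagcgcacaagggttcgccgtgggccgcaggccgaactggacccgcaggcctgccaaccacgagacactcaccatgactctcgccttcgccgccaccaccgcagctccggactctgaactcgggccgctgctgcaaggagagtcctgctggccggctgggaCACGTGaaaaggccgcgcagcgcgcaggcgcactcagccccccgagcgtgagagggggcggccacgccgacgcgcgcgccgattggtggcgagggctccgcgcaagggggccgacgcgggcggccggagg
Nme1 (chr11:93968223-93968522, minus strand): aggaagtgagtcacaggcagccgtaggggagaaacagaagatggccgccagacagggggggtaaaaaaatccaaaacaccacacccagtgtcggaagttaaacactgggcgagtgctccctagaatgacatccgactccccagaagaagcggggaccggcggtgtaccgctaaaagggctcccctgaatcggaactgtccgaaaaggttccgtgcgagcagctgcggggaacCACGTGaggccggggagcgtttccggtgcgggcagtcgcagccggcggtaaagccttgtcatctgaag
Cdk4 (chr10:127063285-127063584, plus strand): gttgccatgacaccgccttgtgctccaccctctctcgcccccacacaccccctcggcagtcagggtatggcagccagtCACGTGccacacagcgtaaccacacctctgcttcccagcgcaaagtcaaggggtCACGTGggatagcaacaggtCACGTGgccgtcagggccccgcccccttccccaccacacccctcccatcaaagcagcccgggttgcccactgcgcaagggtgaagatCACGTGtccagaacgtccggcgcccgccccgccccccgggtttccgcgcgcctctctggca
The Cdk4 window held 4 copies of the motif, that of Ldha 2 and the others 1 each. Ldha, lactate dehydrogenase A, was at 220.2 and 193 against 1475 and 1230.0 CPM (log2 fold change 2.71 ± 0.17). Hspd1 is described above. Nme1, a nucleoside diphosphate kinase, went from 38.8 and 32.7 to 156 and 137 CPM (log2 fold change 2.04 ± 0.15). Cdk4, the kinase that drives cells into S phase, was at 176 and 151 CPM in wild type and 295 and 529 CPM in malignant cells (log2 fold change 1.33 ± 0.28), so copies of the motif and size of rise did not go in the same order among these 4.

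Across all genes, the share of promoters with the motif was higher for genes that rose, which is given here as a description with no test. CACGTG lay in the first listed window of 361 of 2771 genes called higher (13.03%), in 221 of 2763 called lower (7.999%) and in 474 of 5188 not called (9.14%). Over all 10722 tested protein-coding genes with a window the share was 9.85%. Over all 27025 promoters of the table, which include genes not tested, it was 7.24%. For comparison, CAGCTG, another E-box and also a palindrome, of the kind bound by the B-lineage factor E2A, went the other way, with 12.4% of genes called higher, 19.001% of genes called lower, 14.5% of those not called and 16.1% of all promoters. GACGTC, a palindrome that like CACGTG contains CG, was found in 8.70%, 5.72% and 7.50% of these groups and in 4.51% of all promoters. Over the tested protein-coding genes CAGCTG was in 15.1% and GACGTC in 7.35% of windows. The promoters differed in base composition as well, with a median of 22 CG pairs in the windows of genes called higher, 17 in those called lower and 20 in those not called, and the part of composition in the shares was not tested. By class, CACGTG was in 30 of 152 windows of ribosome biogenesis genes, and in 31 of 139 windows of lysosome and autophagy genes. The motif was thus about as common in ribosome biogenesis, a class that mostly rose, as in the lysosomal class, where 61 of 181 tested genes were lower and 18 higher. It was less common in cytosolic and mitochondrial ribosomal proteins, which also mostly rose, at 5 of 63 and 6 of 88 windows.

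Most metabolic classes held more genes that were higher than lower. The mitochondrial ribosome, which is counted among the growth genes above, had 91 of 102 proteins higher and 0 lower. Its member Mrpl12 was at 40.0 and 35.8 against 166 and 172 CPM (log2 fold change 2.16 ± 0.13). Nuclear-encoded genes of oxidative phosphorylation were higher in 106 of 150 cases and lower in 7 (11 lower on the scale of total counts). Atp5b, the catalytic subunit of ATP synthase, went from 764 and 672 to 1971 and 2053 CPM, and Cox6a2, a muscle-type subunit of cytochrome oxidase, fell from 22.7 and 21.9 to 4.64 and 6.49 CPM. Cox6a2 is also on the list of dendritic-cell markers described below. Import and dynamics genes were higher in 42 of 58 cases with none lower, including Timm9, a chaperone of the intermembrane space, at 10.8 and 9.34 against 57.5 and 75.7 CPM (log2 fold change 2.73 ± 0.19). The genes on the mitochondrial DNA itself moved little, holding 2.67 and 2.90% of counts in wild type and 3.57 and 2.99% in malignant cells. Of 22 tested 7 were higher and 1 lower, and the higher count ranged from 2 without wild-type sample 2 to 11 over the samples left out.

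Glycolysis took a larger share of counts in malignant cells. The class was mixed, with 27 of 56 genes higher and 14 lower (7 lower without wild-type sample 2), but its share of counts went from 0.491% ± 0.00670 to 0.990% ± 0.00799 (SD, n = 2). Eno1, enolase, was at 149 and 137 against 1158 and 1266 CPM (log2 fold change 3.08 ± 0.15), and Gapdh at 339 and 306 against 1446 and 1296 CPM (log2 fold change 2.09 ± 0.15). Pkm2, the pyruvate kinase gene, went from 337 and 373 to 1269 and 1208 CPM. Among hexokinases, Hk1 fell from 42.7 and 49.4 to 6.42 and 14.1 CPM and Hk3, which is found chiefly in myeloid cells, from 6.45 and 18.97 to 0.377 and 1.36 CPM. In the tricarboxylic acid cycle 22 of 35 genes were higher and 4 lower, with Mdh2, mitochondrial malate dehydrogenase, at 161 and 149 against 409.9 and 348 CPM. On the scale of total counts 13 were higher. Pdk2, a kinase that shuts off pyruvate dehydrogenase, fell from 27.9 and 33.2 to 6.004 and 3.76 CPM.

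In nucleotide synthesis and folate metabolism 54 of 90 were higher and 13 lower, or 20 lower on the scale of total counts. Shmt2, which makes one-carbon units from serine in mitochondria, was at 64.5 and 71.9 against 632 and 654 CPM (log2 fold change 3.24 ± 0.14), and the folate carrier Slc19a1 rose 15.1-fold, from 12.7 and 16.4 to 182 and 258 CPM. Phgdh, the first enzyme of serine synthesis, was at 101 and 86.9 against 458 and 573 CPM (log2 fold change 2.46 ± 0.17). Ass1, argininosuccinate synthase, had the largest rise among amino acid genes of at least 10 CPM, 25.7-fold, at 19.9 and 19.2 CPM in wild type and 525 and 479 CPM in malignant cells (adjusted p = 0.00034). Dck, the salvage enzyme deoxycytidine kinase, went down instead, from 396 and 308 to 214 and 164 CPM, as did Rrm2b, the p53-inducible ribonucleotide reductase subunit, from 263 and 238 to 80.7 and 63.8 CPM.

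Lipid synthesis was divided, with 33 of 98 genes higher and 28 lower and a median log2 fold change of 0.09 that becomes negative with upper-quartile or total-count scaling. Without wild-type sample 2 these counts were 20 and 17. Within it Fasn, fatty acid synthase, was nevertheless at 99.3 and 114 against 476 and 564 CPM (log2 fold change 2.28 ± 0.16), while Gpam, which begins triglyceride synthesis, was at 411 and 459 against 179 and 90.0 CPM (log2 fold change -1.69 ± 0.32). Acacb, the acetyl-CoA carboxylase of the mitochondrial surface, went from 0.719 and 0.510 to 32.9 and 35.2 CPM. Fatty acid oxidation was similarly divided, with 21 of 69 higher and 15 lower, and 9 in each direction without wild-type sample 2. Shares called higher and lower were 33.7% and 28.6% in lipid synthesis and 30.4% and 21.7% in fatty acid oxidation. Over all genes tested they were 24.9% and 24.3%. Ppargc1b, a coactivator of mitochondrial genes, rose 14.6-fold in the oxidation class, from 1.47 and 1.93 to 23.6 and 25.8 CPM. Lysosome, V-ATPase and autophagy genes held 1.37 and 1.44% of counts in wild type and 0.873 and 0.926% in malignant cells. Laptm5, a lysosomal membrane protein of blood cells, went from 737 and 696 to 81.0 and 89.4 CPM (log2 fold change -3.07 ± 0.16), and on the scale of total counts 92 lysosomal genes were lower and 8 higher. Without wild-type sample 1 the higher count was 12.

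Most DNA replication genes were higher, and most mitotic genes were not called. Of 91 replication genes 63 were higher and 3 lower (median log2 fold change 0.83), including the helicase subunit Mcm6 at 346 and 243 against 879 and 657 CPM (log2 fold change 1.38 ± 0.23) and Cdca7l, a MYC-interacting protein, at 37.9 and 30.2 against 132 and 168 CPM (log2 fold change 2.14 ± 0.19). The shares of counts held by the class were 1.30 and 1.01% against 1.49 and 1.62%. Of 211 genes for mitosis and the spindle 44 were higher (20.9%) and 24 lower (11.4%), both under the 24.9% and 24.3% of all genes tested. Their shares of counts overlapped between groups, at 2.502 and 1.97% in wild type and 1.90 and 2.16% in malignant cells. On the scale of total counts the mitotic calls were 22 higher and 46 lower, and the higher count was 28 without wild-type sample 2, the lower count 16 without premalignant sample 1. Cdc25b, a phosphatase that triggers mitosis, fell from 404 and 385 to 99.4 and 136 CPM, and Tfdp1, the partner of E2F factors, rose from 166 and 129.9 to 485 and 589 CPM.

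The D-type cyclins moved in different directions. Ccnd3, the D cyclin on which pre-B cell expansion depends, fell from 628 and 490.1 to 74.4 and 217 CPM (log2 fold change -1.94 ± 0.48), Ccnd1 rose from 37.2 and 20.8 to 236 and 170.4 CPM (log2 fold change 2.81 ± 0.37), and Ccnd2 was not called, as given above. The kinase inhibitor Cdkn1b, p27, was at 283 and 279 against 83.3 and 106 CPM (log2 fold change -1.57 ± 0.16) and the quiescence-linked cyclin Ccng2 at 286 and 229 against 52.8 and 45.3 CPM (log2 fold change -2.39 ± 0.17). The class of cyclins and their kinases had 10 of 46 genes higher and 13 lower, and these counts fell to 5 without wild-type sample 2 and 7 without wild-type sample 1. Of the cyclin and kinase genes 21.7% were higher and 28.3% lower, near the 24.9% and 24.3% of all genes tested. Histone genes were lower in 13 of 62 cases (21.0%) and higher in 3 (4.84%). Many of them are replication-dependent histones whose transcripts lack a poly(A) tail and are poorly caught by this library type. Hist1h1c, a linker histone, was at 25.1 and 179 against 19.6 and 10.97 CPM, and the number lower was 7 without wild-type sample 2 and 21 on the scale of total counts.

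Genes of the p53 pathway and of apoptosis were called in both directions. Trp53 itself was at 155 and 153 against 242 and 272 CPM (log2 fold change 0.74 ± 0.13), while its targets Mdm2, at 134 and 127 against 71.1 and 77.1 CPM, and Trp53inp1, at 755 and 601 against 217 and 168 CPM, were lower. Other members of the p53 class, among them Aen, Lrdd and Steap3, were called higher. Over the class 8 of 34 genes were higher (5 without wild-type sample 1) and 9 lower, shares near those of all genes. Among apoptosis genes 15 of 51 were higher and 16 lower, with 10 higher without wild-type sample 2. These apoptosis genes make shares of 29.4% higher and 31.4% lower, against 24.9% and 24.3% of all genes tested. Bid, a BH3-only activator of apoptosis, went from 22.98 and 24.6 to 107 and 148 CPM and Bmf, another BH3-only protein, from 141 and 183 to 53.3 and 12.04 CPM. DNA repair genes were higher in 62 of 134 cases and lower in 18, and 36 were higher on the scale of total counts and 41 without wild-type sample 2. Parp1, a sensor of DNA breaks, was at 404 and 425 against 953 and 864 CPM (log2 fold change 1.13 ± 0.14).

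Most immunoglobulin V genes were lower in malignant cells. Of 100 heavy-chain V genes tested 97 were lower and none higher, and of 94 kappa V genes 83 were lower and none higher, with median log2 fold changes of -5.16 and -3.48. V genes resemble one another closely and reads over the joined segment may be lost in mapping, so single V genes are uncertain. Heavy-chain V genes made up 0.0589 and 0.0794% of counts in the wild-type samples, 0.000262% in malignant sample 1 and 0.0251% in malignant sample 2. The composition differed in kind as well as in amount. In wild type the leading heavy-chain V gene held 4.98% of heavy-chain V counts in sample 1 (95% Wilson interval 4.74% to 5.23%) and 5.19% in sample 2 (4.92% to 5.47%), and 59 genes were needed for 90% of these counts in both. In malignant sample 2 a single gene, Ighv14-3, held 80.4% of 7526 counts (79.4% to 81.2%). In malignant sample 1, with 139 counts in all, the leading gene, Gm16711 (now Ighv1-81), held 32.4% (25.2% to 40.5%). These intervals cover counting error only. Kappa V genes were less uneven, with leading genes at 8.69% and 9.09% in wild type and at 10.8% and 13.9% in malignant cells, and Igkv14-111 led in both tumours.

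**Figure D2:**
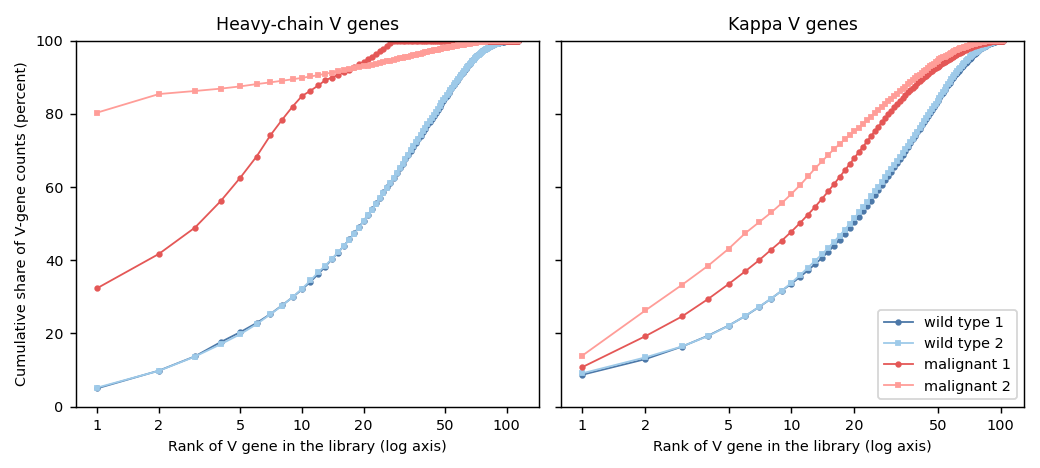
Cumulative share of V-gene counts (percent) against the rank of the V gene within each sample (log axis), for heavy-chain genes on the left and kappa genes on the right. In malignant sample 2 the first heavy-chain gene alone reaches 80.4%, whereas both wild-type samples need 59 genes to reach 90%.

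Of the constant regions, Ighm, the mu heavy chain, was the most abundant, at 4781 and 6087 CPM in wild type and 2379 and 4058 CPM in malignant cells (log2 fold change -0.76 ± 0.29, adjusted p = 0.0778). Of the lambda constant genes Iglc2 fell from 78.6 and 127 to 2.87 and 0.574 CPM and Iglc3 rose from 102 and 146 to 184 and 221 CPM, the latter with an adjusted p of 0.0925. Leaving out wild-type sample 2 reduced the constant, D and J segments called lower from 8 to 4.

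Marker genes of the pro-B and pre-B stage were present in both groups but lower in malignant cells. The 18 markers summed to 11143 and 11755 CPM in wild type and 5076 and 5899.6 CPM in malignant cells, and 15 were called lower and none higher. Vpreb1 and Igll1, the chains of the surrogate light chain that pairs with mu in the pre-B receptor, fell together. Vpreb1 was at 115 and 131 CPM in wild type and 0.146 and 4.05 CPM in malignant cells and Igll1 at 197 and 195 CPM in wild type and 0.167 and 7.56 CPM in malignant cells. Dntt, the terminal transferase of pro-B cells, was at 264 and 221 against 0.105 and 6.70 CPM (log2 fold change -6.23 ± 1.38). Malignant sample 1 had 7 or fewer counts for each of Vpreb1, Vpreb2 and Dntt, with Vpreb2 and the pre-B marker Enpep at 0 counts. Rag1, the recombinase, had the largest loss of share of any protein-coding gene, at 1945 and 1798 CPM in wild type and 154 and 56.7 CPM in malignant cells (log2 fold change -4.15 ± 0.48, adjusted p = 0.00168). By contrast the pan-B signal chains fell by far less, with Cd79a at 1103 and 1480.0 against 732 and 834 CPM (log2 fold change -0.72 ± 0.19) and Cd79b at 1122 and 1297 against 658 and 616 CPM (log2 fold change -0.93 ± 0.15), and Cd24a, at 1879 and 1768 against 1326 and 2324 CPM, and Ptprc, at 568 and 579.8 against 504 and 302 CPM, were not called.

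The machinery of V(D)J recombination was lower in 8 of 14 genes and higher in 2, and its members parted ways. The 2 subunits of the Ku heterodimer, which holds broken DNA ends, moved in opposite directions, with Xrcc5 at 16.8 and 15.8 against 99.6 and 63.0 CPM (log2 fold change 2.32 ± 0.24) and Xrcc6 at 489 and 537 against 153 and 269 CPM (log2 fold change -1.28 ± 0.27). The same was true of the end-filling polymerases, as Poll rose from 8.59 and 9.34 to 13.6 and 34.2 CPM and Polm fell from 235 and 370.5 to 163 and 40.1 CPM. In both polymerases the tumours differed from each other by over 2-fold.

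The transcription factors that set up the B lineage were lower in 29 of 50 cases and higher in 3, or higher in 1 without wild-type sample 1, and lower in 37 and higher in 1 on the scale of total counts. Ebf1, the factor that commits cells to the lineage, was at 528 and 537 against 160.4 and 123 CPM (log2 fold change -1.91 ± 0.17), Pax5, which maintains that identity, at 211 and 309 against 139 and 126 CPM (log2 fold change -0.97 ± 0.20), and Spib at 1585 and 1726 against 383 and 410.4 CPM (log2 fold change -2.06 ± 0.15). Myb, needed for progenitor growth, fell from 1203 and 1297 to 266 and 264 CPM and Bach2, a repressor active at the pre-B stage, from 1085 and 1071 to 232 and 154 CPM. Erg was among the largest falls, from 55.2 and 61.0 to 0.0418 and 1.94 CPM. Those higher were Id3, an inhibitor of E proteins, at 41.3 and 53.3 against 67.7 and 105 CPM, Pou2f2 at 39.2 and 54.6 against 67.2 and 90.0 CPM and Runx3 at 26.4 and 20.2 against 76.9 and 39.8 CPM.

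Most of the receptor signalling genes that were called were lower. Il7r, the receptor for the growth factor of pre-B cells, was at 495 and 397 against 29.5 and 41.7 CPM (log2 fold change -3.65 ± 0.27), and the interleukin-7 and JAK-STAT class was lower in 28 of 50 cases and higher in 3. Il6ra went against it, from 10.3 and 12.1 to 59.4 and 60.5 CPM. Of 65 kinases and adaptors of the B-cell receptor 36 were lower and 5 higher. The kinase Sykb (Syk) was at 1763 and 2110.2 against 926 and 713 CPM, Blnk, the adaptor it phosphorylates, at 461 and 491 against 178 and 198 CPM, and Pik3ap1, which couples the receptor to PI3-kinase, at 642 and 644 against 101 and 75.03 CPM (log2 fold change -2.87 ± 0.20). The scaffold Bank1, known from later B cells, was instead higher, at 15.7 and 25.2 against 140.2 and 167 CPM (log2 fold change 2.91 ± 0.31). Surface markers were lower in 31 of 58 cases and higher in 10 (6 higher without wild-type sample 1). Among those higher, Cd22 rose from 148 and 236 to 336 and 381 CPM and Fcgr2b, the inhibitory Fc receptor, from 61.8 and 66.7 to 274 and 163 CPM.

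Antigen presentation split by class. For MHC class II, which presents peptides to helper T cells, 11 of 14 genes were higher and 1 lower, and 7 were higher without wild-type sample 1. Cd74, the invariant chain, was at 286 and 338 CPM in wild type and 1054 and 2346 CPM in malignant cells (log2 fold change 2.44 ± 0.37), and H2-Aa, a class II alpha chain, at 80.1 and 71.2 against 215 and 495 CPM (log2 fold change 2.23 ± 0.38). In each of these malignant sample 2 was over 2-fold above malignant sample 1. H2-Ob, part of a regulator of class II loading, was the 1 gene lower, at 161 and 212 against 97.1 and 74.7 CPM. For MHC class I 18 of 27 genes were lower and 3 higher. B2m, the shared light chain, was at 1366 and 1134 against 476 and 558 CPM (log2 fold change -1.27 ± 0.17) and H2-K1, a classical heavy chain, at 1125 and 1339 against 395 and 506 CPM (log2 fold change -1.45 ± 0.18). The higher members Psme1 and Psme2 encode the proteasome activator PA28, with Psme1 at 136 and 126 against 367 and 240.4 CPM.

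Interferon-stimulated genes were lower in 71 of 97 cases and higher in 5 (2 higher without wild-type sample 2), with a median log2 fold change of -1.90. Gbp9, a guanylate-binding protein, fell furthest among those of at least 10 CPM, from 118 and 162 to 1.59 and 1.72 CPM (log2 fold change -6.41 ± 0.24, adjusted p = 0.00036). The NF-kB, TNF and Toll-like receptor class had 60 lower and 19 higher of 129. The higher count was 10 without wild-type sample 1. Nfkbia, the inhibitor that NF-kB itself induces, was at 174 and 225 against 50.2 and 48.4 CPM (log2 fold change -2.02 ± 0.16), while the Toll-like receptor Tlr1 rose from 2.73 and 5.69 to 54.2 and 32.3 CPM. The class of other signalling adaptors, lectins and immune receptors was lower in 131 of 220 cases and higher in 21, and its most abundant members called lower, S100a8, S100a9 and Ngp, are granulocyte genes. Among those higher, C1qbp, a protein of the mitochondrial matrix, was at 60.5 and 49.4 against 479 and 352 CPM (log2 fold change 2.92 ± 0.21). Chemokine and cytokine genes were lower in 33 and higher in 9 of 67 cases (5 higher without wild-type sample 1), with Mif, a cytokine made by many growing cells, at 58.8 and 60.3 against 391 and 474 CPM (log2 fold change 2.86 ± 0.16).

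Immediate-early genes differed strongly between the wild-type samples. The class held 0.523 and 1.23% of counts in wild type and 0.294 and 0.248% in malignant cells, and 28 of 71 genes were lower and 5 higher (3 higher without wild-type sample 1). Wild-type samples 1 and 2 held 27.3 and 1179 CPM of Jun, a part of the AP-1 factor, and 163 and 917 CPM of its relative Jund. The malignant samples held 1.32 and 1.97 CPM of Jun and 119 and 114 CPM of Jund. Both malignant samples were below both wild-type samples for these genes, and without wild-type sample 2 there were 20 lower. Btg1 and Btg2, which restrain proliferation, did not depend on 1 sample to that degree, at 681 and 848 against 214 and 118 CPM (log2 fold change -2.20 ± 0.30) and 525 and 790.4 against 229 and 146 CPM (log2 fold change -1.81 ± 0.28).

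Chromatin and transcription-factor classes moved in both directions. Of 283 chromatin modifiers 65 were higher and 70 lower, shares near those of all genes, or 43 and 105 with total counts as the scale. Smarca4, the motor of the BAF remodelling complex, had the third-largest loss of share among protein-coding genes, at 1711 and 2071 against 633 and 662 CPM (log2 fold change -1.55 ± 0.17), and the histone chaperone Set rose from 377 and 291 to 997 and 1254 CPM. Dnmt1, the maintenance DNA methyltransferase, was at 485 and 382 against 708 and 831 CPM. The chromatin organiser Satb1 was at 102 and 108 against 0.544 and 4.62 CPM (log2 fold change -5.42 ± 0.88) and the lamin gene Lmna at 2.89 and 5.69 against 67.9 and 129.6 CPM (log2 fold change 4.53 ± 0.51). In the MYC network Max rose from 88.8 and 81.6 to 117 and 164 CPM, while the antagonists Mxd1, at 42.4 and 61.7 against 13.9 and 22.5 CPM, and Mxd4, at 181 and 179 against 114 and 89.5 CPM, fell. Mxi1, a further antagonist, was called higher. Over this network 6 of 19 genes were higher (31.6%) and 7 lower (36.8%), against 24.9% and 24.3% of all genes tested. On the scale of total counts 4 of the network were higher and 10 lower. Zinc-finger proteins were lower in 125 and higher in 68 of 514 cases, shares at or under those of all genes. Their higher count ranged from 47 without wild-type sample 2 to 104 over the samples left out, the lower count was 82 without wild-type sample 1, and on the scale of total counts 40 were higher and 191 lower.

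Genes for homing and adhesion were lower in 33 of 73 cases and higher in 7, or 21 lower without wild-type sample 2 and 4 higher without wild-type sample 1. Adam10, a protease that sheds surface receptors, fell from 421 and 446 to 170.1 and 148 CPM, and Cd47, the signal that protects cells from engulfment, from 269.6 and 251 to 119 and 151 CPM. Integrin genes were among the members called higher. Itgb7, a partner in gut homing, was at 36.9 and 25.3 against 103 and 376 CPM (log2 fold change 2.94 ± 0.59), Itga1 at 0.754 and 0.368 against 16.9 and 8.14 CPM (log2 fold change 4.45 ± 0.90) and Itgb1, the common beta chain, at 126 and 93.2 against 190.2 and 188 CPM (log2 fold change 0.79 ± 0.17).

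Genes of the endoplasmic reticulum and Golgi moved in both directions. Of 231 tested 71 were higher and 34 lower, 49 higher and 21 lower without wild-type sample 2, and 41 and 54 on the scale of total counts. The main shares were 30.7% higher and 14.7% lower, against 24.9% and 24.3% of all genes tested. Among those higher were the folding factors Canx, calnexin, at 282 and 249 against 547 and 646 CPM (log2 fold change 1.17 ± 0.16), and P4hb, a disulfide isomerase, at 195 and 186 against 425 and 406 CPM (log2 fold change 1.12 ± 0.13). Among those lower was Sec24d, a coat protein of transport vesicles, at 20.9 and 17.8 against 0.8995 and 3.33 CPM. The metal-binding metallothionein Mt1, of the transporter class, rose from 1.38 and 2.01 to 92.2 and 15.6 CPM.

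Signalling and structural classes had more genes lower than higher. GTPases and their regulators were lower in 159 of 403 cases and higher in 49, G-protein coupled receptors lower in 62 of 121 and higher in 12, and extracellular matrix and junction genes lower in 107 of 237 and higher in 28 (17 higher without wild-type sample 1). Col5a3, a fibrillar collagen chain, was expressed in wild-type pre-B cells at 366 and 587 CPM and fell to 3.31 and 6.99 CPM. Gpr56, an adhesion receptor also found on natural killer cells, went from 189 and 210.1 to 0.314 and 5.91 CPM and the calcium channel Cacna1e from 306 and 478 to 20.3 and 16.1 CPM (log2 fold change -4.43 ± 0.27). Atp1b1, a subunit of the sodium pump, fell from 939 and 1054 to 88.6 and 29.4 CPM, while the calcium pump Atp2a2 rose from 184 and 163 to 561 and 420.0 CPM. Protein kinases were lower in 132 and higher in 66 of 396 cases (43 higher on the scale of total counts), and the ubiquitin system lower in 120 and higher in 91 of 465, the lower share being near that of all genes. On the scale of total counts only 56 ubiquitin genes were higher, as also without wild-type sample 2.

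Gene families were also defined only by the letters that open the symbol, with no chosen list. Among families with at least 20 tested protein-coding genes, those with the largest share called higher were Mrps (30 of 30), Mrpl (41 of 47), Rpl (57 of 69), Rps (42 of 51), Polr (20 of 27), Nup (14 of 20), Eif (36 of 56) and Cox (14 of 23). The largest shares called lower were those of Arhgap (16 of 25), Pde (13 of 22), Clec (13 of 22), Cd (48 of 83), Il (26 of 46), Sh (18 of 32), Gpr (23 of 47) and Trim (25 of 52). The first set are mainly mitochondrial and cytosolic ribosomal proteins, polymerase subunits, nucleoporins, initiation factors and cytochrome oxidase. The Rpl and Rps roots, with 69 and 51 tested genes against 88 in the class of cytosolic ribosomal proteins, also take in other genes that share those letters. The second are GTPase-activating proteins, phosphodiesterases, C-type lectins, leukocyte surface antigens, interleukins and their receptors, SH2 and SH3 proteins, orphan receptors and tripartite-motif proteins. The median log2 fold change was 1.45 for Rpl and -3.15 for Clec, the ends of the range.

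The largest single rises were in genes nearly silent in wild type, and those given here are a part of them and are not ranked. Rassf6, a tumour suppressor of the RASSF family, was at 0.280 and 0.198 CPM in wild type and 67.7 and 40.2 CPM in malignant cells (log2 fold change 7.76 ± 0.40, adjusted p = 0.00053). Hepacam2, a cell adhesion protein, went from 0.894 and 1.39 to 133 and 112 CPM, Nes, the intermediate filament nestin of neural progenitors, from 0.123 and 0.340 to 38.6 and 59.1 CPM, and Arsi, a sulfatase, from 0.140 and 0.255 to 15.4 and 31.8 CPM. Lingo3 had 2 counts in wild type in all and was at 21.5 and 10.2 CPM in malignant cells, so no fold change is given. Among the largest falls Irs1, the insulin receptor substrate, was at 15.4 and 21.3 CPM in wild type and 0.0418 and 0.215 CPM in malignant cells and Eya1, a phosphatase and transcriptional coactivator, at 27.8 and 30.8 CPM in wild type and 0.0418 and 0.287 CPM in malignant cells. Camk1g, a calcium-dependent kinase, was at 11.6 and 12.4 CPM in wild type and had 1 count in malignant cells in all. Klra1, a natural killer cell receptor, fell from 18.0 and 18.1 to 0 and 0.215 CPM.

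Genes typical of other blood cells were lower in malignant cells almost throughout. The granulocyte list of 12 genes summed to 1148 and 2809 CPM in the wild-type samples and 88.4 and 147 CPM in the malignant samples, with all 12 called lower. Natural killer markers were lower in 8 of 8 cases (269 and 81.3 against 4.06 and 5.70 CPM) and erythroid markers in 8 of 10 (432 and 1650.2 against 73.2 and 89.4 CPM). T-cell markers were lower in 8 of 11 cases (109 and 55.9 against 4.62 and 19.9 CPM), dendritic markers in 7 of 8 (371 and 237 against 9.75 and 43.4 CPM) and monocyte markers in 5 of 11 (282 and 310.3 against 20.6 and 94.6 CPM). The defining transcripts of granulocytes and natural killer cells were above 0 in all 4 samples, with S100a9 of granulocytes at 351 and 817 CPM in wild type and 22.7 and 39.002 CPM in malignant cells and Ncr1 of natural killer cells at 26.7 and 8.78 against 0.126 and 0.430 CPM. Trac of T cells and Cd209a of dendritic cells were at 0 counts in malignant sample 2, and Pf4 of platelets and Cpa3 of mast cells at 0 counts in both malignant samples. The macrophage genes C1qa and Cd14 were under 1 CPM in all 4 samples, but other members of the monocyte list were not. Lyz2 was at 142 and 205 against 3.64 and 20.3 CPM and Ccr2 at 57.0 and 24.4 against 0.607 and 2.55 CPM. Ly6c2, at 50.4 and 44.4 against 6.82 and 61.9 CPM, was not called. Megakaryocyte markers (3 of 3 tested lower) and basophil markers (3 of 4 tested lower) summed to under 7 CPM in every sample, plasma-cell markers were lower in 3 of 5, and stromal markers were higher in 1 and lower in 3 of 8. These lists share the direction of the lectin, cytokine, interferon and adhesion classes above, and their part in those falls was not tested. Markers of immature and mature B cells were divided, with 4 of 11 higher, which are Cd22, Cd74, H2-Aa and H2-Ab1, and 5 lower.

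**Figure D3:**
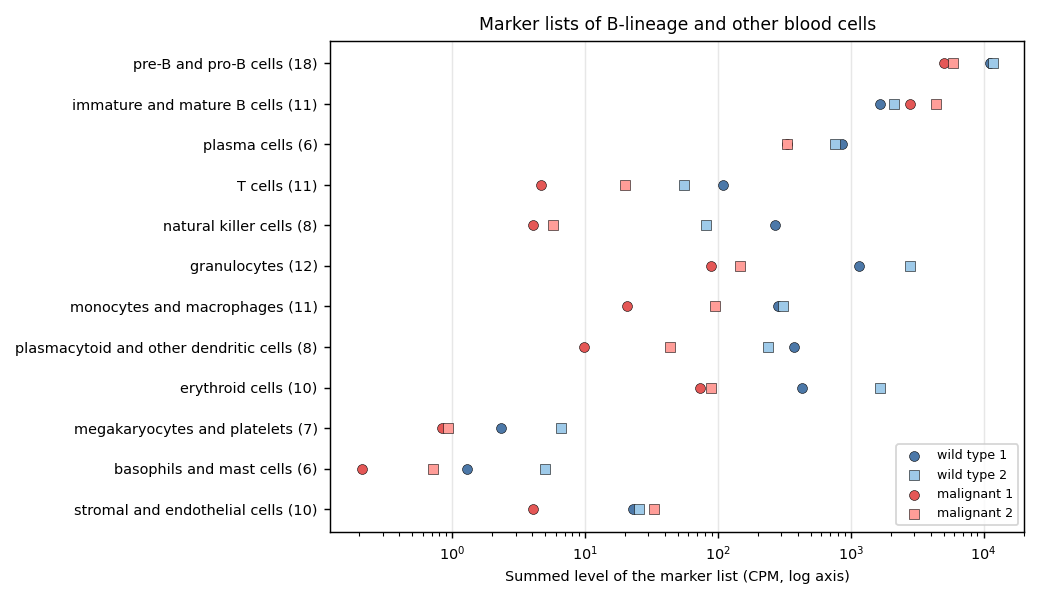
Summed level of marker genes of 12 cell types (CPM, log axis) in each wild-type and malignant sample, with the number of genes found in parentheses. Granulocyte markers sum to 1148 and 2809 CPM in the wild-type samples and to 88.4 and 147 CPM in the malignant samples.

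The 2 tumours also differed from each other. Malignant sample 1 had 1.72 CPM of Xist and 126 CPM of the Y-linked Ddx3y, malignant sample 2 had 2649 and 0.0717 CPM, and the wild-type samples had Xist at 2036 and 1908 CPM, so the tumours carry opposite marks of sex. The part of sex in the comparison was not tested. Among called genes, those furthest above in malignant sample 1 were Ryr2, a calcium release channel, at 69.2 and 0.466 CPM in samples 1 and 2, Tmeff1 at 39.6 and 0 CPM, the Y-linked Uty, the potassium channel Kcnk1 at 41.6 and 2.19 CPM and Hsd17b13 at 28.9 and 1.54 CPM. Those furthest above in malignant sample 2 were S100a4, linked to cell motility, at 3.93 and 181 CPM, the semaphorin receptor Nrp2 at 0.272 and 23.2 CPM, Marcks at 0.167 and 18.5 CPM, Podxl at 0.732 and 19.9 CPM and the matrix protein Sparc at 1.59 and 27.1 CPM. Tmeff1 had 1895 counts in malignant sample 1 and 0 in malignant sample 2, against 2 and 1 in wild type, so without malignant sample 1 its counts were too few for a fold. For Ryr2, Uty and Nrp2 the direction turned when the tumour with the high value was left out. Without malignant sample 1 the log2 fold change of Ryr2 was -0.29 and that of Uty -0.04, and without malignant sample 2 that of Nrp2 was -0.73.

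The genes of some whole chromosomes were shifted together, and the chromosomes differed between the tumours. For protein-coding genes with a mean of at least 10 CPM, the median log2 ratio of each malignant sample to the wild-type mean was taken for each chromosome and set against the median of all chromosomes. In malignant sample 1 chromosomes 1 and 14 stood at 0.38 and 0.45, and the other 17 autosomes at -0.13 to 0.03. In malignant sample 2 chromosomes 3, 6, 10, 12, 14, 15, 16 and 18 stood at 0.22 to 0.38 and the other 11 autosomes at -0.23 to -0.07. Chromosome X stood at -0.15 in malignant sample 1 and -0.32 in malignant sample 2, and at 0.12 and -0.12 in wild-type samples 1 and 2. Between the wild-type samples no autosome was beyond 0.06 in either direction. Chromosome 14 was the 1 chromosome shifted upward in both tumours, and 38.8% of its tested protein-coding genes were called higher. These medians rest on 218 to 758 genes for each autosome and are a description without a test.

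**Figure D4:**
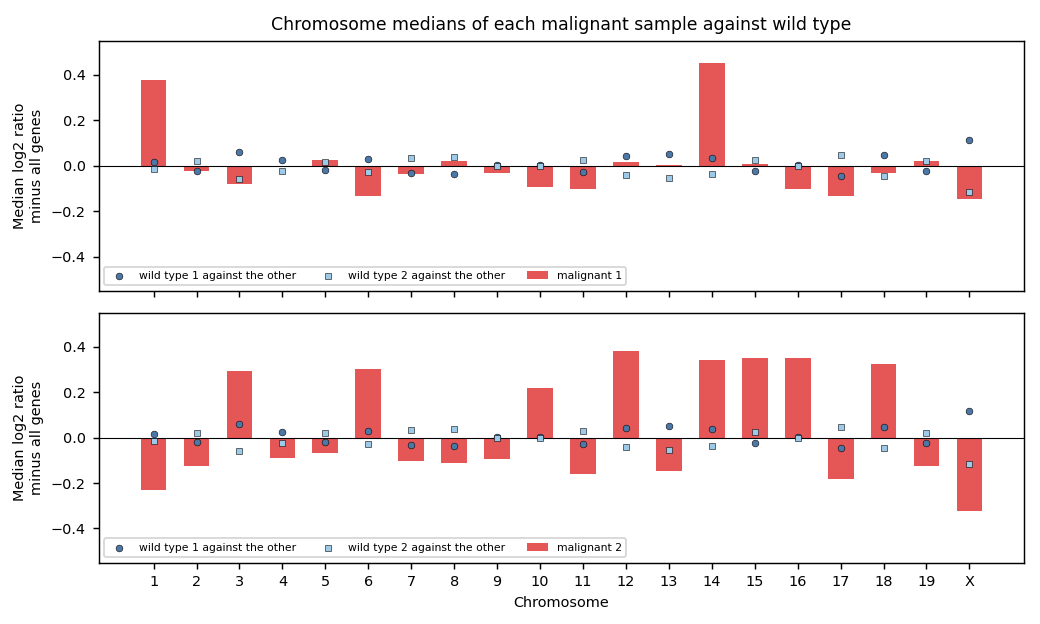
Median log2 ratio to wild type of protein-coding genes on each chromosome, minus the median over all chromosomes, for malignant sample 1 (above) and 2 (below) as bars and for each wild-type sample against the other as points. Malignant sample 1 stands out for chromosomes 1 and 14 and malignant sample 2 for 8 chromosomes, including 14.

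Genes of different kinds took unequal parts. Of 13792 protein-coding genes tested 3577 were higher and 3509 lower. Pseudogenes were higher in 337 of 936 cases and lower in 54, and snoRNAs higher in 68 of 158 and lower in 6. Many mouse snoRNAs lie in introns of ribosomal and translation genes and many pseudogenes copy such genes, so their reads cannot be told apart from those of the parent or host gene here. Long intergenic RNAs were called less often in both directions than all genes, with 78 of 675 higher (11.6%) and 127 lower (18.8%). Among protein-coding genes, those called higher spanned a median of 17149 bases of the genome, those called lower 25352 bases and those not called 22589 bases.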

How the data were processed

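RNA was measured in sorted pre-B cells by poly(A) RNA-seq with single-end reads. The authors aligned reads with TopHat and Bowtie to mm9 and counted them per gene with HTSeq, and the deposited values are raw counts per Ensembl gene. CASAVA 1.8.2 and DESeq are also named in the submitters' processing notes. The HTSeq options and annotation are not given in the sources used here, so it is not known whether counting used strand. Files with the authors' own comparisons (fold changes and p-values) were not used. Symbols and gene types came from the matching mouse annotation of that build and covered 37205 of 37991 identifiers.

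Genes were filtered with filterByExpr, scaled by TMM and tested with the quasi-likelihood F test of edgeR 4.0.16 in R 4.3.3, with all 6 libraries in 1 fit and Benjamini-Hochberg adjustment over 16683 genes. A gene was called at a false discovery rate of 0.1 and an absolute log2 fold change of 0.5. CPM are counts per 1000000 after TMM, shares are percent of raw counts, and SE come from the fit. Each animal is a biological replicate, 2 in each group, and chi-square tests found no duplicated library. Scripts were tested on simulated data.

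The functional classes, marker lists and MYC target list, like the comparison itself, were chosen with earlier results of these data known. Classes were described by counts and medians, with no test of a set. Genes named were drawn from the following lists, not all of which are given in full. The first were the 10 largest rises and falls of at least 10 CPM with groups that do not overlap. The 10 largest gains and losses of share came next. Each class gave up to 3 of its most abundant called genes in each direction, with its largest rise and fall. The last were the 5 genes furthest apart between the tumours in each direction, and members of the marker and target lists. Alternatives were upper-quartile, RLE and total-count scaling, DESeq2 1.42.0, other filters and thresholds, a fit of 4 libraries, a replicate block and each library left out. Promoters of 10722 tested protein-coding genes came from RefSeq (GRCm38.p6), matched by symbol or Ensembl identifier.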

Additional observations from a re-analysis of the deposited data

How the results depend on the processing

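The number of genes called stayed within 1.5 times of 8212 under every alternative run, with 7939 called by DESeq2, 8900 with no filter on low counts, 6591 with at least 10 counts in every library, 7169 with only the 4 libraries in the fit and 7094 at a false discovery rate of 0.05. No called gene was called in the opposite direction under any of them. With each library left out in turn, 5945 to 9200 genes were called, 3005 to 4625 higher and 2940 to 4575 lower, the fewest without wild-type sample 2. A group then has 1 library, which is assumed to vary like the others. Requiring an absolute log2 fold change of 1 left 2762 genes higher and 3155 lower. Upper-quartile scaling gave 3456 higher and 4746 lower. Sample numbers are shared between groups but no source says that they mark a pair. Sample 1 held more counts than sample 2 in every group. Totals were 51065861 and 31283803 in wild type, 53453055 and 34543633 in premalignant and 52996457 and 30031100 in malignant cells. The part of depth in the correlations that follow was not tested. Across genes, which are not independent, deviations of equally numbered samples correlated at r = 0.186 between wild type and malignant, 0.509 between wild type and premalignant and 0.257 between premalignant and malignant. A replicate block gave 8224 calls, 4101 higher and 4123 lower, lost 10 of 456 named-gene calls and moved 3 of 132 class counts by over 1.5 times. Among named genes the direction turned for Hspa1b without wild-type sample 2 (range of the log2 fold change over the libraries left out -4.96 to 0.22), for Ryr2 (-0.29 to 6.91), Uty (-0.044 to 5.25) and Tmeff1 (-3.54 to 10.16) without malignant sample 1 and for Nrp2 (-0.73 to 5.66) without malignant sample 2. The value of -3.54 rests on 2, 1 and 0 counts, under the limit of 3, and is no measured fold. Of 456 named-gene calls 55 were lost without any scaling, with no direction turned, and with each library left out 20 to 89 were lost, the most without wild-type sample 2 (89) and wild-type sample 1 (65). Groups of 2 allow no check for outlying samples, and 3 counts, equal to 0.0526 to 0.108 CPM, set the limit of detection.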
